A study of Homo sapiens with 4 samples.

Results

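The BCL2 family genes examined here were 10 genes picked by symbol: the anti-apoptotic MCL1, BCL2 and BCL2L1, the BH3-only genes BCL2L11, BBC3, PMAIP1, BID and BIK, and the effectors BAX and BAK1. Of the 16057 genes in the deposited table, 9 were these genes and the transcript level of BCL2L11 was not analysed here. The cells were MM.1S, an established human multiple myeloma line, grown in serum-supplemented RPMI-1640 medium. One group received 350 nM JG342, an allosteric inhibitor of the HSP70 chaperones, and the other the solvent DMSO. RNA was taken 26 h later, and each group had 2 libraries, described as biological duplicates. A single line, a single dose and a single time were sampled, and neither group carried another agent or a genetic change named in the labels.

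Proteins of the BCL2 family set whether the outer mitochondrial membrane is opened during apoptosis. Anti-apoptotic members hold the pore-forming effectors BAX and BAK in check, and BH3-only proteins, made in response to stress, either occupy the anti-apoptotic members or engage the effectors. Myeloma cells are known for their reliance on MCL1, and to a varying degree on BCL2 and on BCL-xL, the long product of BCL2L1. Each of these proteins is a target of drugs or drug candidates called BH3 mimetics.

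Levels are given as TPM, in which reads are divided by transcript length and each library is scaled to the same total, so that levels of different genes can be set side by side. The libraries summed to between 994463 and 994718 TPM, and TPM do not record how many reads lay behind a value. The plasma cell and myeloma markers, 8 of 8 of them present in the table, summed to between 4187 and 4936 TPM per library. Markers of other cell types were low: the highest sum was that of the monocyte list, 37.4 to 46.2 TPM, nearly all of it from LYZ, with CSF1R at 0 in both DMSO libraries and CD14 between 0 and 0.99 TPM. In bulk RNA, fewer cells with a transcript and less of it per cell cannot be told apart.

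JG342 was followed by higher transcript levels of 4 BCL2 family genes, a pair from each of the opposing sides. The BH3-only genes PMAIP1 and BBC3 rose about 3-fold, to 3.29 and 2.89 times the DMSO mean in TPM. The anti-apoptotic genes BCL2 and MCL1 rose less, to 1.48 and 1.35 times. No member fell at the threshold used, a limma adjusted p under 0.05 over all genes tested. Of the 9 members in the table, 8 had the mean of at least 1 TPM needed for the test, and 4 of these passed. Over all 12042 genes tested, 18.4% passed, made up of 10.8% as higher and 7.62% as lower. In 7 of the 8 tested members the values of the treatments did not overlap, against 62.1% of all tested genes. JG342 was the higher side in 5 of the 7 (34.0% of all tested genes) and the lower in 2 (28.2%). Differences below are in log2(TPM + 1), a scale that makes changes of low genes look smaller, and the median over all tested genes was 0.027 on that scale.

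**Figure D1:**
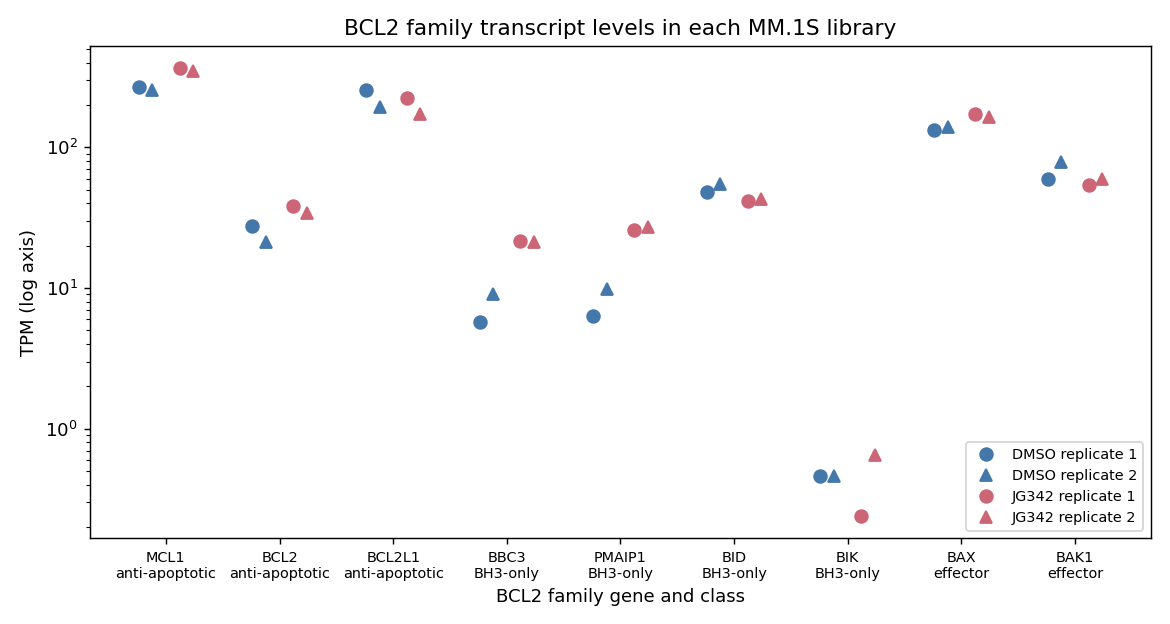
Transcript level in TPM (log axis) of each BCL2 family gene in the DMSO libraries (blue) and the JG342 libraries (red), with circles for replicate 1 and triangles for replicate 2. BBC3 and PMAIP1 lie below 10 TPM in both DMSO libraries and above 20 TPM in both JG342 libraries, while BIK stays below 1 TPM throughout.

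The BH3-only genes PMAIP1 and BBC3 moved together, and the sequences before their starts are shown for that reason, with that of BAX for comparison. RefSeq promoter sequences (GRCh38.p14) were found for 8 of the 10 genes, MCL1 and BIK not being among them. The 250 bases before each start were searched on both strands for 4 short motifs: TGATGNAA, the core of the element bound by ATF4 with C/EBP proteins; TGACGT, the core of the cAMP response element; CACGTG, the E-box bound by MYC and related proteins; and GAANNTTC, a core of the heat shock element. Of all 35116 promoters in the table, 3.14%, 7.10%, 6.34% and 5.78% held these motifs in that order. Only the stretch outside any annotated transcript is printed, 5′ to 3′ on the gene's strand, with matches in capitals.
PMAIP1, chr18:59899746-59899947, plus strand: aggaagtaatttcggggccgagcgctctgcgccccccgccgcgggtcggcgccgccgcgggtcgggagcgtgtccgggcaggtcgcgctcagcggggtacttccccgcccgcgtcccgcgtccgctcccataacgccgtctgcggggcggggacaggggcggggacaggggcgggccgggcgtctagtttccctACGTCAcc
BBC3, chr19:47232861-47232917, minus strand: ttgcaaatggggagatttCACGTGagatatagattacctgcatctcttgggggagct
BAX, chr19:48954625-48954814, plus strand: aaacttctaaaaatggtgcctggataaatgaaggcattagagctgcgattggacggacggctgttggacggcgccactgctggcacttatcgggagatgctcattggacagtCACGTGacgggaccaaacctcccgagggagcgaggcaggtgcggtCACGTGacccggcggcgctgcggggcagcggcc

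The PMAIP1 window held 1 match, to TGACGT read on the opposite strand, which began 56 bases before the start. In BBC3 the single match was CACGTG, 232 bases before the start. The BAX window held 4 matches to CACGTG, beginning 138, 93, 45 and 14 bases before the start, of which the first 2 lie in the printed stretch. CACGTG also occurred before 2 of the 5 BID starts and GAANNTTC once before BAK1, and no match to the 4 motifs was found in the windows of BCL2, BCL2L1 and BCL2L11. TGATGNAA matched none of the windows searched. These are matches of letters and were not tested for binding.

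PMAIP1 (NM_021127) encodes NOXA, a BH3-only protein that binds MCL1 and speeds its turnover. Its level was 6.37 and 9.78 TPM in DMSO replicates 1 and 2, and 26.01 and 27.1 TPM in the JG342 libraries. Both JG342 libraries were above both DMSO libraries, and the DMSO libraries differed more from each other than the JG342 libraries did. The log2 difference was 1.63 ± 0.18 (SE, limma adjusted p 0.000944). It was 1.87 within replicate pair 1 and 1.38 within pair 2, and it ran from 1.35 to 1.90 in the fits that each lacked a library, passing each time.

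BBC3 (NM_001127240) encodes PUMA, a BH3-only protein that binds all the main anti-apoptotic members. It was at 5.71 and 9.05 TPM with DMSO and at 21.5 and 21.2 TPM with JG342. As for PMAIP1, DMSO replicate 2 was the higher of the control libraries and the JG342 libraries were nearly level. The log2 difference was 1.44 ± 0.19 (SE, limma adjusted p 0.00205), with 1.74 in pair 1 and 1.14 in pair 2, and it passed without any one library, at 1.15 to 1.73. PMAIP1 and BBC3 stayed in a similar ratio throughout, PMAIP1 being 1.12 and 1.08 times BBC3 in the DMSO libraries and 1.21 and 1.28 times with JG342.

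Among transcription factors of the integrated stress response, ATF4 and DDIT3 were also higher in DMSO replicate 2 than in replicate 1, and ATF3 less so. ATF4, the factor whose translation rises when eIF2 is phosphorylated, was at 420 and 788 TPM in DMSO replicates 1 and 2 and at 1269 and 1476 TPM with JG342. DDIT3, which encodes the ATF4-induced factor CHOP, was at 20.7 and 41.9 TPM with DMSO and at 283 and 295 TPM with JG342. ATF3 was at 26.5 and 30.8 TPM with DMSO and at 135 and 138 TPM with JG342. The part of these factors in the BBC3 and PMAIP1 values was not tested.

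BID and BIK, the remaining BH3-only genes in the table, did not follow. BID (NM_001196), whose protein is cut by caspase-8 to link death receptors to mitochondria, was at 48.5 and 54.6 TPM with DMSO and at 41.5 and 42.7 TPM with JG342. Its JG342 values lay below both DMSO values, by a log2 difference of −0.28 ± 0.11 (SE, limma adjusted p 0.109), and the fit with a replicate block gave a limma adjusted p of 0.0285. BIK (NM_001197), a BH3-only protein of the endoplasmic reticulum, was listed at 0.46 TPM in both DMSO libraries and at 0.24 and 0.65 TPM with JG342. The JG342 values of BIK lay on either side of the DMSO values, and the gene was too low to be tested.

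MCL1 (NM_001197320), the short-lived anti-apoptotic protein on which many myeloma cells depend, was at 269 and 258 TPM with DMSO and at 364 and 347 TPM with JG342. The replicates lay close together and the treatments did not overlap. The log2 difference was 0.43 ± 0.09 (SE, limma adjusted p 0.0120), and the pairs gave 0.44 and 0.43. With 1 library fewer the size held, at 0.40 to 0.47, but the call was lost without DMSO replicate 1 (limma adjusted p 0.0574) and without DMSO replicate 2 (0.0990). It was also lost without the mean-variance trend (limma adjusted p 0.0560).

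BCL2 (NM_000633), the target of the BH3 mimetic venetoclax, was the lowest of the 3 anti-apoptotic members. It was at 27.4 and 21.3 TPM with DMSO and at 38.04 and 34.3 TPM with JG342, so that both treated libraries lay above both controls. The log2 difference was 0.56 ± 0.14 (SE, limma adjusted p 0.0273), with 0.46 in pair 1 and 0.66 in pair 2. The call did not survive leaving out DMSO replicate 2 (0.39, limma adjusted p 0.188) or JG342 replicate 1 (0.49, limma adjusted p 0.0895). Scaling the libraries to equal medians gave 0.49 (limma adjusted p 0.0591), quantile normalization gave 0.51 (limma adjusted p 0.0605), and without a filter on low values the limma adjusted p was 0.102.

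BCL2L1 (NM_001191) did not rise with the other anti-apoptotic members. Its level was 254 and 193 TPM with DMSO and 223 and 173 TPM with JG342, and the treatments overlapped. In both treatments replicate 1 was the higher library. The log2 difference was −0.17 ± 0.15 (SE, limma adjusted p 0.475), and JG342 was the lower library within both pairs, by −0.19 and −0.16. The sign turned without DMSO replicate 1 (0.026) and without JG342 replicate 2 (0.011). The difference was −0.37 without DMSO replicate 2 and −0.35 without JG342 replicate 1. In each of these fits the libraries left are no longer matched by number. A replicate block and equal medians together gave −0.24 with a limma adjusted p of 0.0475. BCL2L1 yields the anti-apoptotic BCL-xL and the pro-apoptotic BCL-xS by splicing, and a single value per gene does not separate them. RefSeq lists 10 mRNA accessions for BCL2L1 and 3 for MCL1, and the table gives 1 of each.

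The effectors BAX and BAK1, whose proteins form the pores of the outer membrane, differed in opposite directions without passing the test. BAX (NM_001291428) was at 133 and 140.4 TPM with DMSO and at 173 and 164 TPM with JG342, with no overlap and a log2 difference of 0.30 ± 0.09 (SE, limma adjusted p 0.0565). BAK1 (NM_001188) was at 59.6 and 78.4 TPM with DMSO and at 54.3 and 59.4 TPM with JG342, so that the treatments nearly met. Its log2 difference was −0.26 ± 0.14 (SE, limma adjusted p 0.217), and it was −0.069 without DMSO replicate 2 and −0.46 without DMSO replicate 1, passing in neither fit. Both passed when the replicate number entered as a block, BAX at a limma adjusted p of 0.00328 and BAK1 at 0.0302. BAX also passed without a block after quantile normalization (0.34, limma adjusted p 0.0389). A pseudogene, BAK1P1, matches 29.8% of the BAK1 transcript, so the BAK1 level is uncertain by an amount that was not measured. Exons of other genes also overlap BAK1 (GGNBP1) and BCL2L1 (ABALON) on the opposite strand and MCL1 (ADAMTSL4-AS1) on the same strand. BBC3 is overlapped by MIR3190 on the opposite strand and by MIR3191 on the same strand. The sources used here do not give whether strand was used in counting, which would not separate genes on the same strand. BAX was the higher effector in every library, at 2.23 and 1.79 times BAK1 with DMSO and 3.19 and 2.75 times with JG342.

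**Figure D2:**
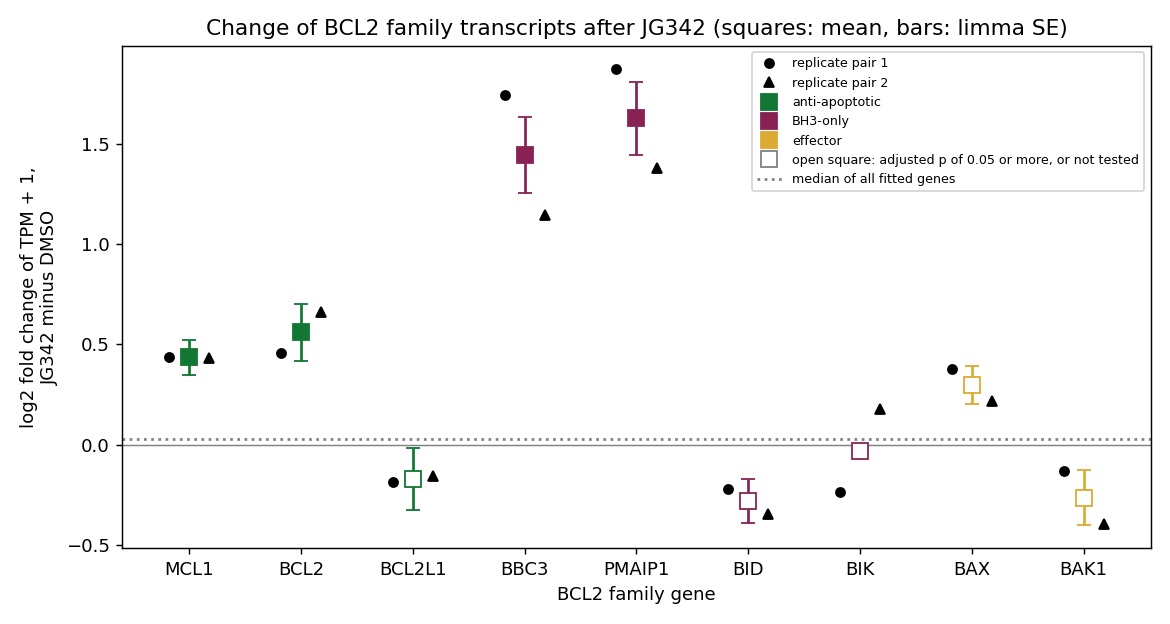
Log2 difference of TPM + 1 between JG342 and DMSO for each BCL2 family gene, with the mean and limma standard error as squares and bars, and the replicate pairs as black points. Filled squares passed the limma test: MCL1, BCL2, BBC3 and PMAIP1, all higher, while BIK was not tested and its pairs lie on either side of 0.

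When the replicate number entered as a block, 7 of the 8 tested members passed, 5 higher and 2 lower, where 34.9% of all tested genes passed. The added ones were BAX, BID and BAK1. Without DMSO replicate 2, 2 members passed, PMAIP1 and BBC3, where 6.37% of all tested genes passed. Without the mean-variance trend 2 members passed, where 12.5% of all tested genes did.

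Within each class the members moved differently. The median log2 difference was 0.43 for the 3 anti-apoptotic members (range −0.17 to 0.56), 0.71 for the 4 BH3-only members in the table (−0.28 to 1.63) and 0.018 for the 2 effectors. The BH3-only median includes BIK, which was too low to be tested. It lies midway between BIK (−0.030) and BBC3 (1.44), and no member was near it. The effector median turned to −0.10 without DMSO replicate 1 and to −0.050 with equal medians, and was 0.14 without DMSO replicate 2. Each of the first 2 classes held 2 members that rose and at least 1 that did not pass. The difference between the classes was not tested, since the genes of a class are not replicates.

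Each class was made up differently in the DMSO and the JG342 libraries. Among the anti-apoptotic transcripts MCL1 made up 48.8% and 54.5% of the summed TPM with DMSO and 58.2% and 62.6% with JG342. MCL1 was thus the largest share in all 4 libraries, and the treatments did not overlap. An exact two-sided permutation test gave p = 0.333 for this share, the smallest p that 2 libraries against 2 allow. BCL2L1 held 46.2% and 40.9% with DMSO and 35.7% and 31.2% with JG342, and BCL2 at most 6.18% in any library. The BH3-only shares are of the 4 members in the table only. They leave out the BH3-only genes BAD, BMF and HRK, and BAD was above BID in every library. Exons of GPR137 overlap BAD on the opposite strand, and GPR137 matches 33.0% of the BAD transcript. The BAD level is therefore uncertain by an amount that was not measured. Among the 4 members in the table BID held 79.5% and 73.9% with DMSO but 46.5% and 46.6% with JG342. PMAIP1 held 10.4% and 13.2% with DMSO and 29.1% and 29.5% with JG342, and BBC3 held 9.36% and 12.3% against 24.1% and 23.1%.

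**Figure D3:**
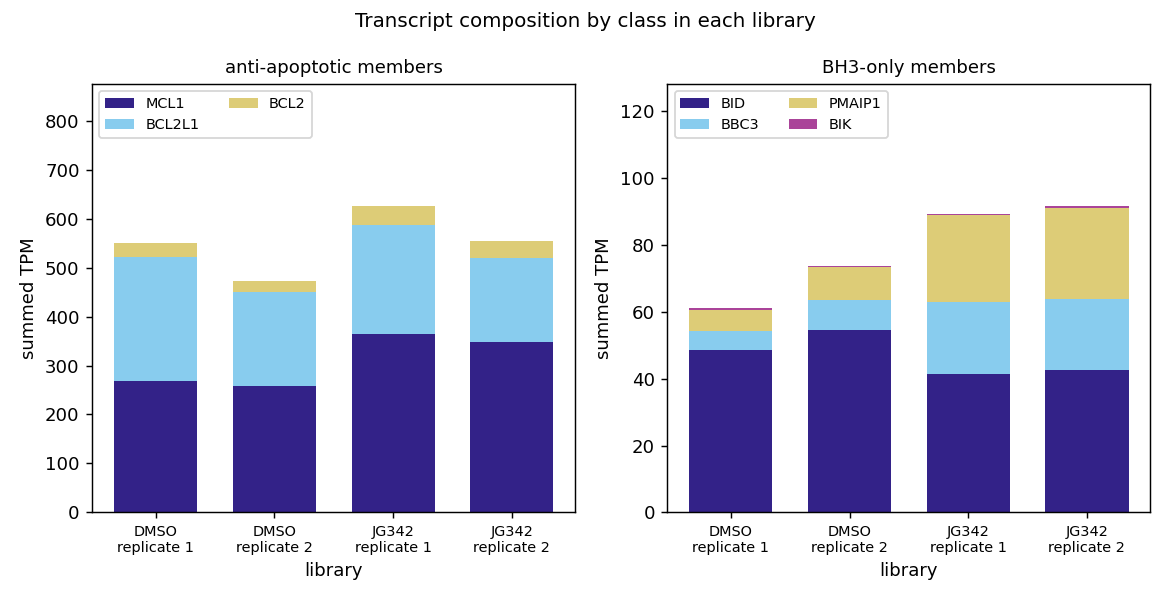
Summed TPM of the anti-apoptotic members (left) and the BH3-only members in the table (right) in each library, stacked by gene. The MCL1 part is larger in both JG342 libraries, and in the BH3-only class the BBC3 and PMAIP1 parts widen while the BID part narrows.

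Summed over a class, the mean TPM with JG342 was 1.34 times that with DMSO for the BH3-only members, 1.16 times for the anti-apoptotic members and 1.09 times for the effectors. The BH3-only members summed to 61.03 and 73.9 TPM with DMSO and to 89.2 and 91.7 TPM with JG342. The anti-apoptotic members summed to 550 and 472 TPM with DMSO and to 626 and 555 TPM with JG342, and the effectors to 192 and 219 against 227 and 223 TPM. The BH3-only sum leaves out BAD, BMF and HRK. Relative to the anti-apoptotic sum, it was 0.111 and 0.156 with DMSO and 0.143 and 0.165 with JG342, and the treatments overlapped. PMAIP1 relative to its binding partner MCL1 did not overlap, at 0.0237 and 0.0380 with DMSO and 0.0714 and 0.0779 with JG342. PMAIP1 transcripts thus remained far below MCL1 transcripts in every library.

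The rest of the BCL2 family was listed beside these genes, 7 further genes of which none passed the test. The 3 other BH3-only genes were high enough to be tested. BMF, a BH3-only protein tethered to the cytoskeleton, was at 39.1 and 51.6 TPM with DMSO and at 59.2 and 61.3 TPM with JG342. Its values did not overlap, with a log2 difference of 0.41 ± 0.14 (SE, limma adjusted p 0.0680), and it passed with the replicate block (limma adjusted p 0.00053) and without DMSO replicate 2 (0.61, limma adjusted p 0.0414). Without DMSO replicate 1 the difference was 0.22 (limma adjusted p 0.365). BAD, a BH3-only protein held inactive by phosphorylation, was at 90.2 and 73.7 TPM with DMSO and at 90.5 and 82.1 TPM with JG342. HRK was at 1.76 to 2.72 TPM. The anti-apoptotic BCL2A1, BCL2L2 and BCL2L10 and the effector BOK stayed between 0 and 1.1 TPM and were not tested. BCL2L2 shares exons with the readthrough gene BCL2L2-PABPN1, listed at 73.8 and 79.1 TPM with DMSO and at 64.7 and 83.1 TPM with JG342, so how reads were divided between these entries is uncertain.

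Outside the family, 41 genes of the same pathway were listed, in 7 lists. With the other family genes these made 48, of which 43 were tested, and 7 passed as higher and 5 as lower. Over all tested genes 18.4% passed, 10.8% as higher and 7.62% as lower. Of the 12 that passed, 6 were transcription factors. The median log2 difference of the listed genes in the table was 0.027, the same as over all tested genes.

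Of the 7 transcription factors reported here that are known to act on BH3-only or MCL1 genes, 4 passed as higher and 2 as lower. DDIT3, ATF3 and ATF4, of the integrated stress response, rose by 3.25, 2.22 and 1.25 on the log2 scale. Pseudogenes match 52.3% of the ATF4 transcript. DDIT3 shares exonic sequence with the oppositely transcribed MARS and MBD6, and with AC022506.1 on the same strand. STAT3, which acts downstream of interleukin 6 and on MCL1, went from 21.4 and 21.9 TPM to 36.9 and 32.5 TPM, by 0.66 ± 0.12 (SE, limma adjusted p 0.00798). MYC fell from 285 and 291 TPM to 181 and 182 TPM, by −0.66 ± 0.09 (SE, limma adjusted p 0.00206), and E2F1 fell by −0.47. FOXO3, at −0.22, did not pass. E2F1 lost its call without DMSO replicate 1, at a difference of −0.38, and without the mean-variance trend (limma adjusted p 0.0544). Without a filter on low values, both E2F1 (limma adjusted p 0.0568) and ATF4 (0.0917) lost their call. The ATF4 difference was 0.80 without DMSO replicate 1 and 1.70 without DMSO replicate 2, passing in both fits.

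Among 7 genes for the turnover of the MCL1 protein, 1 passed. FBXW7, a ubiquitin ligase subunit that marks MCL1 for degradation, went from 21.3 and 20.4 TPM to 41.99 and 34.7 TPM, by 0.84 ± 0.13 (SE, limma adjusted p 0.00383). The others ran from −0.19 to 0.27, among them the ligase HUWE1 and the deubiquitinase USP9X.

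Downstream of the pore, the 8 apoptosome and caspase genes lay between −0.31 and 0.37, and 2 passed. CASP8, the initiator caspase of death receptors that cuts BID, rose by 0.37 (limma adjusted p 0.0253) and CYCS, the gene of cytochrome c, which has many pseudogenes, fell by −0.31 (limma adjusted p 0.0422). CASP8 was at 107 and 110.1 TPM with DMSO and at 143 and 138 TPM with JG342, and CYCS was at 188 and 185 against 149 and 151 TPM. Both lost their call whichever single library was left out, with limma adjusted p of 0.0539 to 0.128 for CASP8 and 0.0945 to 0.180 for CYCS.

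The inhibitors of apoptosis split. BIRC2, the gene of cIAP1, a ubiquitin ligase of the NF-κB pathway, rose from 33.3 and 31.4 TPM to 46.3 and 45.9 TPM, by 0.50 ± 0.11 (SE, limma adjusted p 0.0145). BIRC5, the gene of survivin, which also acts in mitosis, fell from 77.9 and 90.03 TPM to 48.9 and 57.2 TPM, by −0.65 ± 0.12 (SE, limma adjusted p 0.00828). The other 5 of this list did not pass. Of the 4 outer membrane partners VDAC3, one of the voltage-dependent channels, passed as lower, by −0.53 ± 0.09 (SE, limma adjusted p 0.00633), from 284 and 305 TPM to 201 and 207 TPM, while VDAC2, which binds BAK, was at 0.13 and did not pass. Without DMSO replicate 2 the limma adjusted p was 0.104 for BIRC2, 0.0721 for BIRC5 and 0.0642 for VDAC3, and for BIRC2 it was 0.0568 without DMSO replicate 1. None of the 6 BCL2-homology relatives and neither of the 2 tethers of BH3-only proteins passed without a block. With the replicate block, where 34.9% of all tested genes passed, the tether DYNLL1 passed as higher (limma adjusted p 0.00726). So did XIAP as higher (0.0126), and BIRC3 (7.99e-05), VDAC1 (0.00659) and MTCH2 (0.0232) as lower. With equal medians added to the block, DYNLL1 no longer passed (limma adjusted p 0.240). XIAP, BIRC3, VDAC1 and MTCH2 still passed, at limma adjusted p of 0.0018 to 0.0427. Near-identical copies match 33.0% of the DYNLL1, 43.5% of the VDAC1 and 58.1% of the VDAC2 transcript, so these levels are uncertain.

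**Figure D4:**
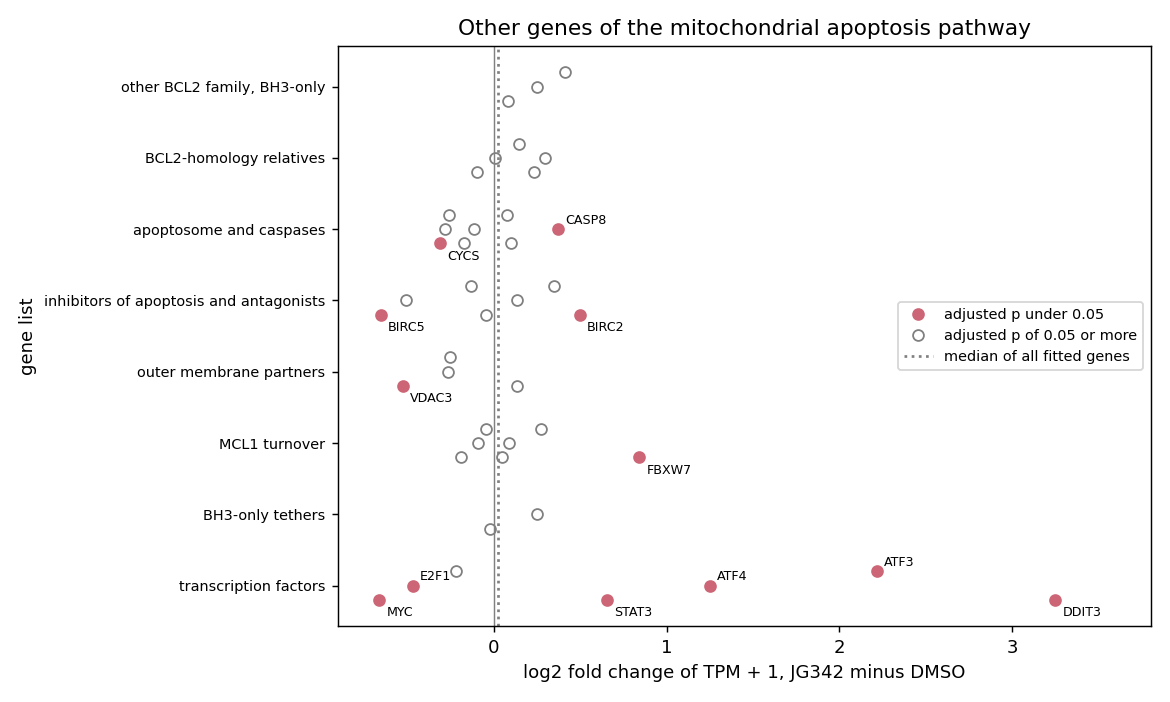
Log2 difference of TPM + 1 between JG342 and DMSO for the tested genes of each pathway list, with genes past the limma threshold filled and named and the median of all tested genes as a dotted line. The transcription factors spread from −0.66 for MYC to 3.25 for DDIT3, and each other list has at most 2 filled points.

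The genes most like the members over the 4 libraries were ranked by the Euclidean distance between centred log2(TPM + 1) values, among 12041 genes. The closest to PMAIP1, the member with the largest rise, were AARS (distance 0.127), NXPH4 (0.14) and SARS (0.149). AARS and SARS encode the alanyl and seryl tRNA synthetases. AARS was at 99.1 and 164 TPM with DMSO and at 376 and 400.1 TPM with JG342, the same order of libraries as PMAIP1. The closest to BID, the member with the largest negative difference, were RAD21 (0.0135), TOMM22 (0.0143) and SRRD (0.015), and none of these passed the test. With 4 libraries such distances are a description only.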

How the data were processed

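RNA sequencing of MM.1S cells gave 4 libraries. HISAT2 2.0.4, Bowtie2 2.2.5 and RSEM 1.2.12 were used per the submitters' processing notes, whose roles, the genome build and the annotation are not given in the sources used here. The authors deposited 1 value per gene and library, taken here as TPM from the library sums. Of 10326 genes with more than 1 RefSeq mRNA accession, 91.0% carry the first in alphabetical order, so an accession need not name the isoform measured.

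TPM are not counts, so log2(TPM + 1) was fitted for 12042 genes whose mean reached 1 TPM, with limma 3.58.1 (R 4.3.3, eBayes with trend, two-sided, Benjamini-Hochberg, threshold 0.05), leaving out 4015 genes. Treatment was the only term. Same-numbered libraries share a prefix in their descriptions, and their deviations correlated across genes at r = 0.27. A fit with the replicate number as a block is therefore given for the members where it changes a call. For the other listed genes it is given only in part. The test was tried on simulated data first. Alternatives were another pseudocount, filter, scaling or variance model, and each library left out.

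Members, lists, motifs and tests were chosen with earlier results of these data known. All members are named, and of each list the genes that passed. Others were chosen after their values were seen (HUWE1, USP9X, FOXO3, VDAC1, VDAC2, MTCH2, XIAP, BIRC3, DYNLL1, BMF, BAD, HRK). A further transcription factor gene is not counted in the lists and not reported here. BLAST 2.17.0 was run against GENCODE release 29 transcripts to find near-identical copies (95% identity over 20% of the transcript). Depth is unknown from TPM. With 2 libraries per group the spread rests on 2 residual and 6.89 prior degrees of freedom.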

Additional observations from a re-analysis of the deposited data

How the results depend on the processing

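PMAIP1 and BBC3 kept their direction and passed under all 13 alternatives, and MCL1 and BCL2 kept their direction in all of them. The number of members past the threshold was 4. It was 2 without the mean-variance trend, 7 with the replicate block, 8 with the replicate block and equal medians, and 2 to 4 when each library was left out. The count over all genes was 2221 and fell to 828 without a filter on low values. It was 767 (without DMSO replicate 2) to 1825 when each library was left out, and 1046 without DMSO replicate 1. With the replicate block, whose prior was infinite, it was 4207, and 3985 with equal medians in addition. Higher genes made up 58.7% of the calls, 44.6% after equal medians and 42.03% with the block as well, as the median of all genes moved from 0.027 to −0.035. The median of the anti-apoptotic members, 0.43, was 0.37 with equal medians, with or without the replicate block, 0.48 after quantile normalization and 0.39 to 0.47 with a library left out. That of the BH3-only members, 0.71, was 0.55 with a pseudocount of 5 and 0.56 to 0.85 with a library left out. With a library left out, the BCL2L1 difference ran from −0.37 (without DMSO replicate 2) to 0.026 (without DMSO replicate 1) and was 0.011 without JG342 replicate 2, a turn of its sign in the latter fits. That of BAD ran from −0.064 (without DMSO replicate 2), a turned sign, to 0.22. The causes were not tested.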

Other observations

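The family named for the BAX inhibitor motif was looked at after its values had been seen. These membrane proteins are unrelated to BCL2 by sequence, and TMBIM6, also called BAX inhibitor 1, sits in the endoplasmic reticulum and counters cell death set off by BAX. The table holds 6 of its genes, of which 5 were tested and 3 passed, all higher, where 18.4% of all tested genes passed and 10.8% did so as higher. TMBIM6 was at 520.1 and 515 TPM with DMSO and at 797 and 819 TPM with JG342, without overlap, a log2 difference of 0.64 ± 0.09 (SE, limma adjusted p 0.00219). GHITM, a member of the inner mitochondrial membrane, went from 254 and 294 TPM to 416 and 433 TPM, by 0.64 ± 0.10 (SE, limma adjusted p 0.00434). GRINA went from 88.03 and 93.04 TPM to 126 and 127 TPM, by 0.48 ± 0.09 (SE, limma adjusted p 0.0100), and its call was lost without DMSO replicate 1 (limma adjusted p 0.0697) and without DMSO replicate 2 (0.0511). TMBIM1 and TMBIM4 were at 0.18 and 0.28 and did not pass, and FAIM2 was listed at 0 in 3 of the 4 libraries.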
